A study of Mus musculus with 9 samples.

Results

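The 38 genes described here encode the machinery of cell division: the cyclins and kinases that start mitosis, the kinetochore and spindle checkpoint, the motors of the spindle, and the proteins that separate the chromosomes. They were chosen by function, with earlier results of these data known. All 38 were matched by symbol in both of the authors' comparison tables, among 57010 gene identifiers. RNA came from 9 mouse organoid libraries, organoids being cultures that form miniature pieces of tissue, in 3 groups of 3. SCLC organoids treated with GSK formed the first group (GSK), small cell lung cancer organoids with no treatment named the second (SCLC) and normal lung organoids the last (Normal). The sources used here give neither what GSK is, its dose and the treatment time, nor the strain, genotype and age of the animals or the number of organoid lines. The SCLC libraries are the control side of the GSK comparison and the tumour side of the comparison with Normal, so these comparisons share 3 libraries. No value of a single library was used. Replicate error therefore enters through the standard errors (SE) that the authors gave, and whether groups overlapped was not analysed here.

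A cell enters mitosis when cyclin-dependent kinase 1, bound to cyclin B, becomes active. Kinetochores, protein plates built on the centromeres, then catch the microtubules of the spindle, and the spindle checkpoint holds back the anaphase-promoting complex (APC/C), a ubiquitin ligase, until every chromosome is attached. The APC/C and its activator Cdc20 then have cyclin B and securin destroyed, separase cuts cohesin, and the cell exits mitosis. Most of these genes are transcribed late in the cell cycle, from promoters that carry a cell cycle genes homology region (CHR) and CCAAT boxes bound by the factor NF-Y, and their RNA is therefore low in tissue that divides little. Small cell lung cancer is a neuroendocrine tumour known for fast division and for loss of the retinoblastoma protein.

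The promoters of 6 members are printed because the results turn on these genes and they hold one or both of these elements, Cenpe a CCAAT box alone: Ube2c, Plk1 and Cdc20, which were lower in GSK than in SCLC, and Mki67, Cenpf and Cenpe, which were higher. Sequences are RefSeq's, on build GRCm38.p6, from 250 bases before to 50 bases after the transcript start and written in the direction of the gene. Capitals mark the letters of the CHR (TTTGAA or TTCGAA, or TTCAAA on the other strand) and of the CCAAT box (CCAAT, or ATTGG on the other strand), and a stretch such as CCAATTGG holds both spellings of the box in overlap. Ube2c lies at chr2:164769679-164769978 on the plus strand, Plk1 at chr7:122159185-122159484 on the plus strand and Cdc20 at chr4:118437294-118437593 on the minus strand. Mki67 lies at chr7:135716330-135716629 on the minus strand, Cenpf at chr1:189688037-189688336 on the minus strand and Cenpe at chr3:135212313-135212612 on the plus strand.
Ube2c: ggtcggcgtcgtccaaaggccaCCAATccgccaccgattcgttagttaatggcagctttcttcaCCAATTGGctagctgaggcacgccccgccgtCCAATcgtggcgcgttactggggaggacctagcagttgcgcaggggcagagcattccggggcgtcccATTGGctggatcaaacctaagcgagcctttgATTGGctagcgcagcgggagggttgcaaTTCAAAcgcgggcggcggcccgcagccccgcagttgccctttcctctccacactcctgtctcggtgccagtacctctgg
Plk1: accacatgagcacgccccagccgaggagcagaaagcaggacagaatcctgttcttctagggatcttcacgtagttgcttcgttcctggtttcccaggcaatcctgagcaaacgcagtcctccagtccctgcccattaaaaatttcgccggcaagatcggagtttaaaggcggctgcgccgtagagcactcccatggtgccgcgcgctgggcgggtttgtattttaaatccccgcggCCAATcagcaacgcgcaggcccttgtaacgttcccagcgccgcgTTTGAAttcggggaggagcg
Cdc20: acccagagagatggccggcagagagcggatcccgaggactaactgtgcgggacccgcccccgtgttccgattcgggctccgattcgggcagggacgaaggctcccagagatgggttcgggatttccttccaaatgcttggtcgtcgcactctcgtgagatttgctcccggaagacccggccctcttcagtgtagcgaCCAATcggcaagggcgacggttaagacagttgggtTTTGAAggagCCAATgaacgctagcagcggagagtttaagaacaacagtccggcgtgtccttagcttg
Mki67: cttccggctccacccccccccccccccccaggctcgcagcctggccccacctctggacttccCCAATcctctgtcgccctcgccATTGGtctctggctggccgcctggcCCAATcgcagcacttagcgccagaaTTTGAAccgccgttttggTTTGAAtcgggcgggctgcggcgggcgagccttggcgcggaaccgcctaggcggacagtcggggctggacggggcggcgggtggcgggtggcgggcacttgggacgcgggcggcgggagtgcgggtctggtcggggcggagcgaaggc
Cenpf: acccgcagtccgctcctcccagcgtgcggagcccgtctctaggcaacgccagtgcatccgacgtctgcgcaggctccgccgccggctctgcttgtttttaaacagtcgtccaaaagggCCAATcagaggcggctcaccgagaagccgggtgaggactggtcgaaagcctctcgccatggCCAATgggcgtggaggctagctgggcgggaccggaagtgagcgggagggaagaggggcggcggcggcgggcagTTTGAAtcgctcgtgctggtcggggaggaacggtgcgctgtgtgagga
Cenpe: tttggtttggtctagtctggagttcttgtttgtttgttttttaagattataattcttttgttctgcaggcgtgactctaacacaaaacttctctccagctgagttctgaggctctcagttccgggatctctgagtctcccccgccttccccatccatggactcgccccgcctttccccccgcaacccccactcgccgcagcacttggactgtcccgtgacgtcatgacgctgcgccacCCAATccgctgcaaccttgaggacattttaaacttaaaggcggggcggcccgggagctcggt

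Promoter sequence was found for 30 of the 38 members. CHR letters were present in 23 of the 30 (76.7%), against 21.7% of the 27025 genes in the promoter table and 16.5% of those with a mean of at least 100 normalized counts in the tables. CCAAT letters were present in 23 of the 30 (76.7%) and in 41.1% of all genes with a promoter. Both kinds stood in 20 of the 30 (66.7%), against 8.61% of all genes. With TTTGAA alone as the CHR, 22 members held it (73.3%), against 20.2% of all genes. The letters were seen in genes of either direction under GSK: Ube2c has a CHR 29 bases before the start, Cdc20 18 bases before it, and Mki67 a pair, 116 and 98 bases before it. The promoter of Cenpe holds a CCAAT box whose first base lies 12 bases before the start and no CHR letters in this window. The members without CHR letters in the window were Birc5, Ccnb1, Cenpe, Mad2l1, Nek2, Nuf2 and Pttg1. The median log2 fold change of GSK over SCLC, from the authors' deposited table, was -1.09 for the 23 members with CHR letters and -0.80 for the 7 without, ranges of -2.21 to 1.15 and -1.47 to 0.86 that overlap. For SCLC over Normal the medians from the authors' deposited table were 3.44 and 3.12. A match is a description of the letters, not a measured site.

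**Figure D1:**
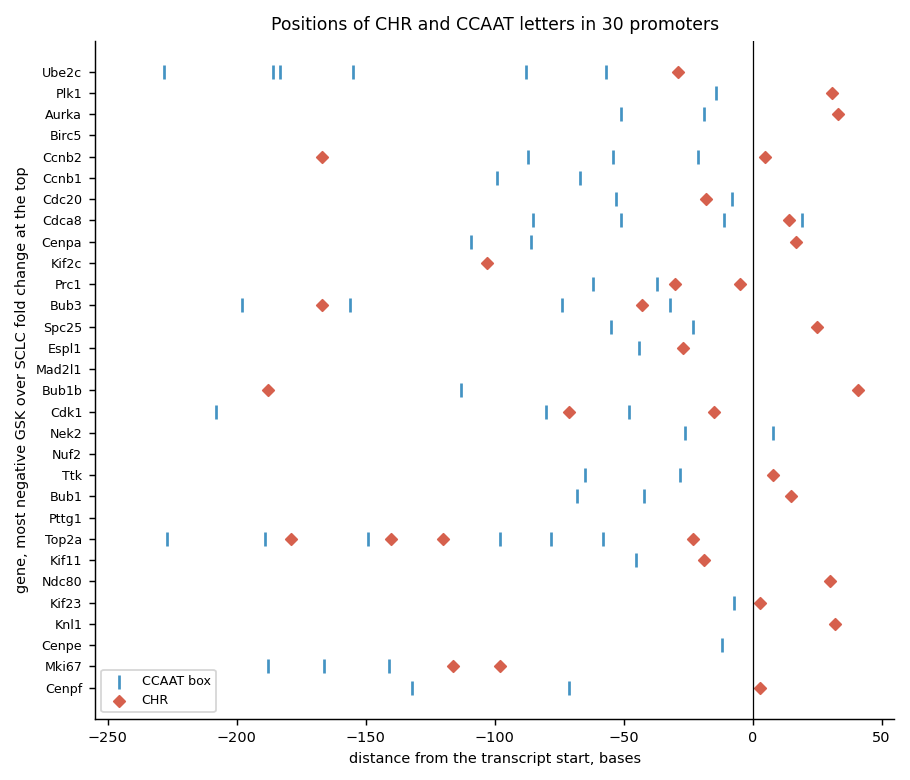
Positions of CHR letters (red diamonds) and CCAAT letters (blue bars) in the promoters of 30 members, against distance from the transcript start in bases, with the most negative log2 fold change of GSK over SCLC at the top. Both the lowest gene, Ube2c (-2.21), and the highest, Cenpf (1.15), hold CHR and CCAAT letters.

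Values below are log2 fold changes ± the authors' SE, and a gene was counted as higher or lower where the authors' adjusted p over all genes was under 0.05. The labelled tissues were checked against marker genes. All 8 markers of lung epithelium were lower in SCLC than in Normal (summed implied means 3105 normalized counts in SCLC and 2.71e+06 in Normal), and all 8 neuroendocrine markers were higher (149773 in SCLC and 92.4 in Normal, where 4 of them were under 1). Fibroblast markers were present in Normal and nearly absent in SCLC, with summed implied means of 23.7 in SCLC and 9060 in Normal and all 5 lower. Immune markers were lower for 3 of 5 (72.6 in SCLC and 1148 in Normal), endothelial markers for 2 of 4 (53.0 in SCLC and 110 in Normal) and the erythroid marker Hba-a1 was lower (0.77 in SCLC and 13.7 in Normal). Group means are implied by each gene's mean and fold change in the authors' deposited tables.

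Of the 38 members, 37 were higher in SCLC than in Normal, none was lower and 1 did not pass, against 25.3% of all 24719 genes tested that were higher and 25.1% that were lower. All members were abundant, and among genes that averaged at least 100 normalized counts the share higher was 32.8% to 43.6% and the share lower 24.4% to 34.6%, depending on the class of transcript length. The members' median log2 fold change in the authors' deposited table was 3.50, or 11.3-fold, against 0.10 over all genes tested. It was above 2 for 35 members, above 3 for 27 and above 4 for 9, while the SEs ran from 0.23 to 0.56. In bulk RNA, a larger share of dividing cells and more RNA in each dividing cell cannot be told apart.

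The genes of mitotic entry and the mitotic kinases had median log2 fold changes of 3.83 and 3.89 in the authors' deposited table. Other roles lay close, with medians of 3.77 for spindle motors and midzone, 3.73 for the passenger complex and 3.70 for anaphase and exit. Cyclin B1, the activating partner of CDK1, had an implied mean of 13213 normalized counts in SCLC and 578 in Normal, and Ccnb1 was 4.51 ± 0.42 higher on the log2 scale in the authors' deposited table (adjusted p = 2.92e-25). Cyclin B2 (Ccnb2, 3.48 ± 0.39), cyclin A2 (Ccna2, 3.87 ± 0.40), the phosphatase Cdc25c that activates CDK1 (3.83 ± 0.41) and Cdk1 itself (3.06 ± 0.44) were also higher in the authors' deposited table. All 6 kinases rose. Aurora A (Aurka), which acts at the spindle poles, was 4.32 ± 0.40 higher and Aurora B (Aurkb), the kinase of the passenger complex, 4.17 ± 0.31 higher in the authors' deposited table. Polo-like kinase 1 (Plk1) had the widest error of the members, at 4.09 ± 0.56 in the authors' deposited table (adjusted p = 3.17e-12). The checkpoint kinases Ttk and Bub1 stood at 3.69 ± 0.36 and 2.48 ± 0.39 in the same authors' deposited table, and the centrosome kinase Nek2 at 3.57 ± 0.43.

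The passenger complex, which corrects faulty attachments, had all 3 of its members here higher: Cdca8 (borealin) at 4.18 ± 0.36, Birc5 (survivin) at 3.73 ± 0.44 and the scaffold Incenp at 2.90 ± 0.32 in the authors' deposited table. The 6 genes of kinetochore structure lay close together. They ranged from 2.58 ± 0.41 for the scaffold Knl1 to 3.56 ± 0.41 for Cenpa, the histone variant that marks centromeres, in the authors' deposited table. The 4 subunits of the NDC80 complex, the microtubule-binding part of the kinetochore, lay within that range, at 3.44 ± 0.51 for Ndc80, 3.12 ± 0.43 for Nuf2, 3.07 ± 0.48 for Spc24 and 3.52 ± 0.40 for Spc25 in the authors' deposited table. The spindle checkpoint genes included smaller changes. Bub3, which recruits the checkpoint kinases to kinetochores, was 1.79 ± 0.23 higher, Mad2l1, the inhibitor of Cdc20, 2.19 ± 0.30 and Bub1b (BubR1) 3.30 ± 0.33 in the authors' deposited table.

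Among the spindle genes, Tpx2, the activator of Aurora A (4.27 ± 0.38), and the microtubule depolymeriser Kif2c (4.19 ± 0.50) changed most in the authors' deposited table. The bipolar spindle motor Kif11 (3.77 ± 0.38), the midzone motor Kif20a (3.77 ± 0.43) and the midzone bundler Prc1 (2.7 ± 0.39) followed in the authors' deposited table. Kif23, a subunit of centralspindlin in cytokinesis, had the smallest change among the members that passed. Its implied means were 3185 normalized counts in SCLC and 954 in Normal, a log2 fold change of 1.74 ± 0.37 in the authors' deposited table (adjusted p = 8.48e-06). Topoisomerase II alpha (Top2a), which untangles sister chromatids, was 3.35 ± 0.36 higher and the transcription factor Foxm1, an activator of late cell cycle genes, 3.84 ± 0.45 higher in the authors' deposited table.

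The genes of anaphase held both extremes. Ube2c, the ubiquitin-conjugating enzyme of the APC/C, had implied means of 24685 normalized counts in SCLC and 779 in Normal, the largest change of the members at 4.99 ± 0.39, or 31.7-fold, in the authors' deposited table (adjusted p = 5.56e-36). Separase (Espl1) was 4.41 ± 0.52 higher and Cdc20 2.98 ± 0.39 higher in the authors' deposited table. Securin (Pttg1), the inhibitor of separase, stood apart. Its implied means were 528 in SCLC and 441 in Normal, and its log2 fold change of 0.26 ± 0.29 in the authors' deposited table did not pass (adjusted p = 0.463, 95% interval -0.30 to 0.82). Mki67, the proliferation marker that coats mitotic chromosomes (2.57 ± 0.36), Cenpf, a large kinetochore and microtubule protein (3.18 ± 0.42), and Cenpe, a kinetochore motor (2.30 ± 0.40), rose by less than the members' median in the authors' deposited table. A test against a log2 change of 1 in place of 0 left 36 of the 37 calls, and Kif23 did not pass it (adjusted p = 0.148, recomputed from the authors' deposited table).

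**Figure D2:**
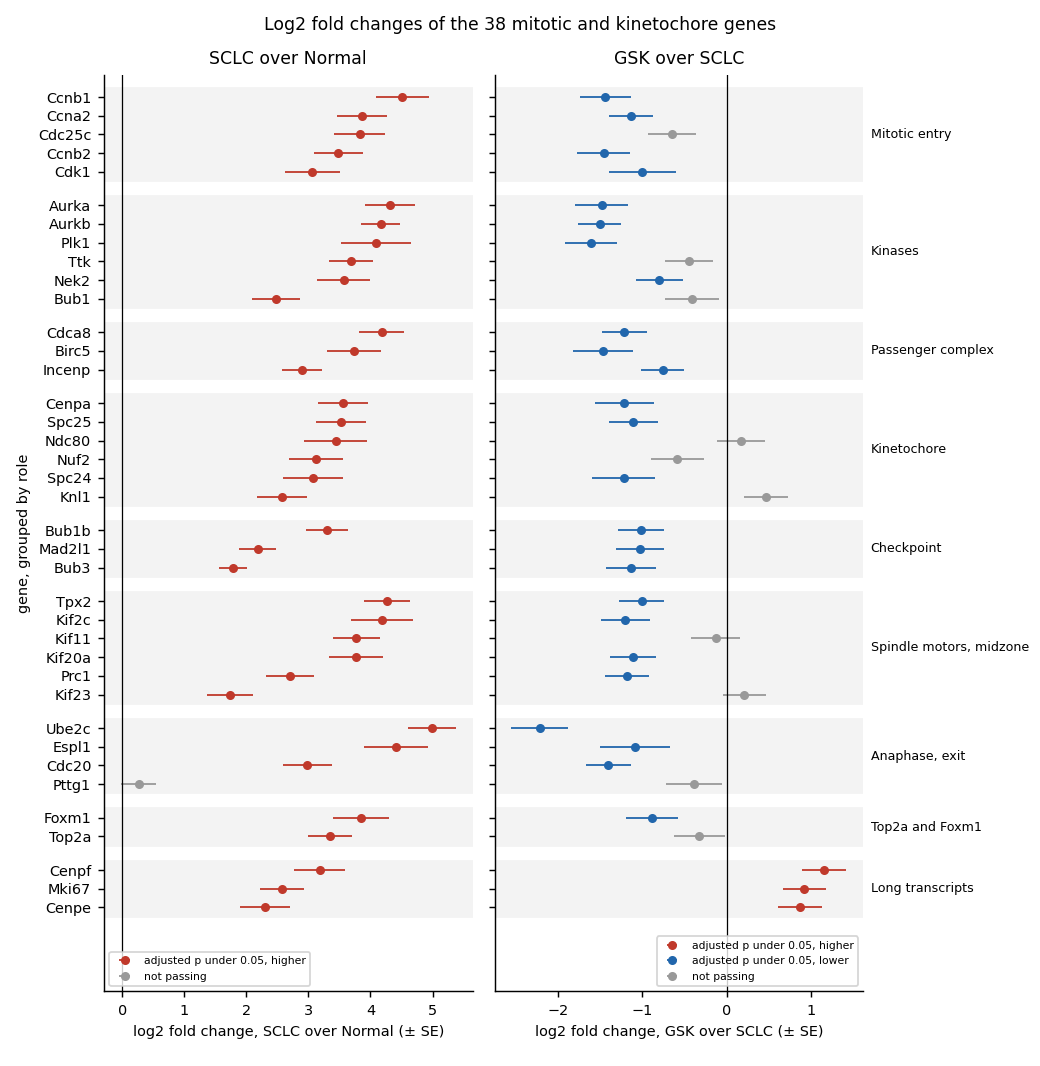
Log2 fold change ± the authors' SE of each of the 38 members, by role, for SCLC over Normal (left) and GSK over SCLC (right), with red and blue for adjusted p under 0.05 and grey for genes that did not pass. On the left every gene but Pttg1 is higher, and on the right 25 are lower and the 3 genes at the bottom, Cenpf, Mki67 and Cenpe, are higher.

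In the GSK libraries most of the 38 genes were lower than in SCLC, with 3 exceptions that were higher. The counts were 25 lower, 3 higher and 10 not passing, against 15.5% of all 28376 genes tested that were lower and 21.6% that were higher. Among abundant genes the share lower was larger and depended on transcript length: 44% under 2000 bases, 30.1% from 2000 to under 4000, 20.6% from 4000 to under 6000 and 14.2% at 6000 and over, beside 8 of 10, 12 of 17, 3 of 5 and 2 of 6 members. The members' median log2 fold change in the authors' deposited table was -1.03, or 2.04-fold lower, against 0.24 over all genes tested and -0.25 over those with a mean of at least 100 normalized counts. It was below -1 for 21 members. The scaling of the libraries bears on these counts: the implied total was 31.9 M normalized counts in GSK and 45.3 M in SCLC, a log2 ratio of -0.51. With totals set equal, 12 members were lower and 6 higher, beside 1970 lower and 8738 higher of all 28376 genes tested. With the median of abundant genes set to 0, 20 members were lower and 4 higher, beside 3076 lower and 7245 higher of all genes tested. Over all genes called, 58.2% were higher as the authors scaled them, 81.6% with equal totals and 70.2% with the median at 0.

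The GSK libraries also held RNA of cell types that the SCLC libraries nearly lacked. All 5 fibroblast markers were higher in GSK (summed implied means 13885 normalized counts in GSK and 25.6 in SCLC), as were all 5 immune markers (17669 in GSK and 78.2 in SCLC, where 3 were under 1) and all 4 endothelial markers (14230 in GSK and 56.5 in SCLC, where 1 was under 1). The erythroid marker Hba-a1 was higher (2492 in GSK and 0.82 in SCLC). Lung epithelial markers were higher for 6 of 8, with sums of 10317 in GSK and 3315 in SCLC. Scgb1a1 alone had implied means of 5428 in GSK and 2.37 in SCLC. Epcam (-0.84 ± 0.70, adjusted p = 0.369) and Cdh1 (-1.54 ± 1.31, adjusted p = 0.382) did not pass in the authors' deposited table. Of the 8 neuroendocrine markers, 5 were lower, 1 was higher (Neurod1) and 2 did not pass, and their sum was 68363 in GSK and 161677 in SCLC, a log2 ratio of -1.24 beside the members' median of -1.03. The labels name organoids alone for the GSK group and give no source for this RNA, so what the GSK libraries were made from is in doubt, and GSK is used below as the name of these libraries. The part of these cell types in the changes of the mitotic genes was not tested.

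Of the 5 genes of mitotic entry, 4 were lower in GSK. Ccnb1 had implied means of 5257 normalized counts in GSK and 14276 in SCLC and fell by 1.44 ± 0.30 on the log2 scale in the authors' deposited table (adjusted p = 1.51e-05). Ccnb2 fell by 1.46 ± 0.31, Ccna2 by 1.13 ± 0.26 and Cdk1 by 1.0 ± 0.40 in the authors' deposited table, the call on Cdk1 having the largest adjusted p of the 25 (0.0347). In the authors' deposited table Cdc25c lay just outside the threshold, at -0.65 ± 0.28 (adjusted p = 0.0567). The kinases divided. Plk1 (-1.61 ± 0.31), Aurkb (-1.51 ± 0.26), Aurka (-1.48 ± 0.32) and Nek2 (-0.80 ± 0.28) were lower in the authors' deposited table. The checkpoint kinases Ttk (-0.45 ± 0.29, adjusted p = 0.227) and Bub1 (-0.41 ± 0.32, adjusted p = 0.329) did not pass in the authors' deposited table, and their values turned positive with equal totals (0.06 and 0.09).

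All 3 passenger complex genes and all 3 spindle checkpoint genes were lower. Birc5 fell by 1.47 ± 0.36, Cdca8 by 1.22 ± 0.27 and Incenp by 0.76 ± 0.25 in the authors' deposited table. Bub3 (-1.13 ± 0.29), Mad2l1 (-1.03 ± 0.28) and Bub1b (-1.02 ± 0.27) lay within 1 SE of each other in the authors' deposited table, though none of these 3 checkpoint genes passed with equal totals (adjusted p 0.0788 to 0.132). Kinetochore structure was mixed. Spc24 (-1.22 ± 0.37), Cenpa (-1.21 ± 0.35) and Spc25 (-1.11 ± 0.29) were lower in the authors' deposited table. Their partners in the NDC80 complex did not pass: Nuf2 stood at -0.59 ± 0.32 (adjusted p = 0.139) and Ndc80 at 0.17 ± 0.28 (adjusted p = 0.687) in the authors' deposited table. Implied means of Ndc80 were 2081 normalized counts in GSK and 1849 in SCLC, while those of Spc24 were 1946 in GSK and 4536 in SCLC. Knl1, at 0.47 ± 0.26 in the authors' deposited table (adjusted p = 0.156), did not pass either, but did so as higher with equal totals (0.97, adjusted p = 0.00101) and had the opposite sign (-0.41) once the trend over length and GC content was removed.

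Among the spindle genes, 4 fell by similar amounts: Kif2c by 1.21 ± 0.29, Prc1 by 1.19 ± 0.26, Kif20a by 1.11 ± 0.27 and Tpx2 by 1.01 ± 0.27 in the authors' deposited table. The other 2 did not pass. Kif11 stood at -0.13 ± 0.29 (adjusted p = 0.763) and Kif23 at 0.20 ± 0.25 (adjusted p = 0.574) in the authors' deposited table, with 95% intervals of -0.70 to 0.43 and -0.30 to 0.70. Kif11 turned positive with equal totals (0.37) and with the median of abundant genes at 0 (0.11), and Kif23 passed as higher with equal totals (0.71, adjusted p = 0.0171, recomputed from the authors' deposited table). Foxm1 fell by 0.89 ± 0.30 (adjusted p = 0.0125) and Top2a, at -0.32 ± 0.30 in the authors' deposited table, did not pass (adjusted p = 0.421).

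Ube2c had the most negative fold change of GSK over SCLC among the members. Its implied means were 5760 normalized counts in GSK and 26728 in SCLC, a log2 fold change of -2.21 ± 0.34, or 4.64-fold lower, in the authors' deposited table (adjusted p = 8.96e-10). It was the only member lower by a test against a log2 change of 1. Cdc20 (-1.40 ± 0.27, adjusted p = 1.22e-06) and Espl1 (-1.09 ± 0.41, adjusted p = 0.0256) were lower in the authors' deposited table, while Pttg1 at -0.39 ± 0.33 (adjusted p = 0.383) did not pass here either. The implied mean of Pttg1 was 437 in GSK and 572 in SCLC, the lowest of the members per kilobase of transcript in GSK (261 in GSK and 342 in SCLC).

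Mki67, Cenpf and Cenpe were higher in GSK than in SCLC. Cenpf had implied means of 9252 normalized counts in GSK and 4167 in SCLC, a log2 fold change of 1.15 ± 0.27, or 2.22-fold, in the authors' deposited table (adjusted p = 9.41e-05). Mki67 had 38079 in GSK and 20209 in SCLC, at 0.91 ± 0.26 or 1.88-fold in the authors' deposited table (adjusted p = 0.0016). Cenpe had 3690 in GSK and 2028 in SCLC, at 0.86 ± 0.26 or 1.82-fold in the authors' deposited table (adjusted p = 0.00371). Mki67, a common marker of dividing cells, and the cyclins and kinases above thus had fold changes of opposite sign. Per kilobase of its longest coding transcript, Mki67 ranked first of the 38 members in GSK (3785 normalized counts per kilobase) and 18th in SCLC (2009), while Ube2c ranked 4th in GSK (2629) and first in SCLC (12199). None of the 3 genes was higher by a test against a log2 change of 1. A trend with transcript length and GC content ran through all abundant genes. With it removed and the overall median kept, none of the 3 genes passed as higher.

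**Figure D3:**
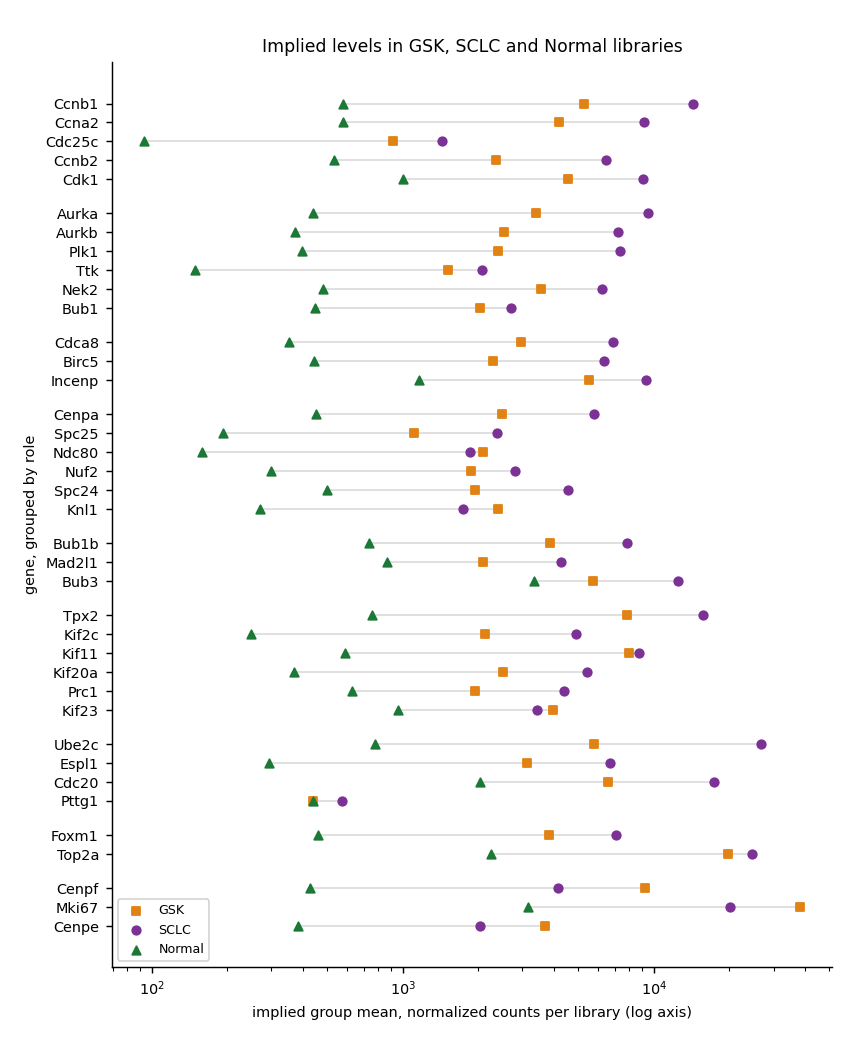
Implied group means of the 38 members in normalized counts per library (log axis) for GSK (orange squares), SCLC (purple circles) and Normal (green triangles), GSK and SCLC from one table and Normal from the other. Most members lie between Normal and SCLC in GSK, while Cenpf, Mki67 and Cenpe, and by less Knl1, Kif23 and Ndc80, which did not pass, lie above SCLC, and Pttg1 is nearly level in all 3 groups.

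Set across the tables through the shared SCLC libraries, 37 of the 38 members had an implied level above Normal in GSK, with a median log2 difference of 2.7 from the authors' deposited tables. The exception was Pttg1 at -0.12, and Cenpf was highest at 4.33. The share of all genes with an implied level above Normal was not computed, so the count describes the members only. The implied level of Ube2c was 5760 normalized counts in GSK and 779 in Normal, and that of Mki67 38079 in GSK and 3150 in Normal. The tables were scaled separately, by 0.11 on the log2 scale over the members' SCLC means, and this difference was not tested.

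The 3 genes that rose have the longest transcripts of the group. Their longest coding transcripts measure 11130 bases for Cenpf, 10061 for Mki67 and 7910 for Cenpe. Their median log2 fold change of GSK over SCLC was 0.91, against -1.09 for the other 35 members, a difference of 2.0 in the authors' deposited table. In SCLC over Normal they lay below the others, at a median of 2.57 against 3.56, a difference of -0.99 in the authors' deposited table. Genes are not replicates, so both differences are descriptions without a test.

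Length alone did not sort the members. Another 3 have transcripts of at least 6000 bases, and they spread widely: Knl1 (7800 bases) did not pass, while Mad2l1 (7557 bases) and Espl1 (6658 bases) were lower in GSK. Mad2l1 is long through its untranslated parts, with a coding length of 615 bases, whereas Espl1 is long in its coding part, 6354 bases. Espl1 is also the member with the highest GC content, 56.1%, against 46.6% for Mki67, 43.3% for Cenpf, 42.9% for Cenpe and 37.7% for Knl1. Over the 38 members, the rank correlation of the GSK fold change was 0.60 with transcript length, 0.66 with coding length and -0.58 with GC content, over genes that share the same libraries.

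A trend of the same sign ran through all abundant genes in GSK over SCLC. Over the 12443 genes that averaged at least 100 normalized counts, the rank correlation of the fold change was 0.24 with length and -0.29 with GC content. By length, the median log2 fold change of all such genes in the authors' deposited table was -0.67 under 2000 bases, -0.28 from 2000 to under 4000, -0.05 from 4000 to under 6000 and 0.15 at 6000 and over. The members' medians in the same classes were -1.22, -1.11, -0.89 and 0.67 in the authors' deposited table, with 10, 17, 5 and 6 members. The members' medians thus lay below those of all genes of like length in the first 3 classes. In SCLC over Normal the trend was weaker over all genes (rank correlation -0.07 with length and 0.13 with GC content).

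With this trend over length and GC content removed, the 3 long genes no longer passed against a log2 change of 0. The removal kept the overall median, and abundant genes had a median of -0.25 in GSK over SCLC. Values after removal are therefore not distances from genes of like length and GC content. Measured from that median, the 3 long genes would lie higher and the lower members less far below. A test from that median was not run. Cenpf stood at 0.45 (adjusted p = 0.156), Mki67 at 0.39 (adjusted p = 0.202) and Cenpe at 0.23 (adjusted p = 0.5), recomputed from the authors' deposited table, and no member was higher. Their distance from the other members narrowed to 1.31 and kept its sign. On the lower side 26 members were called in place of 25: Bub1 (-0.82), Nuf2 (-0.79) and Top2a (-0.78) passed, and Incenp (-0.57, adjusted p = 0.0515) and Spc24 (-0.80, adjusted p = 0.0665) did not, recomputed from the authors' deposited table. Of all 17130 genes tested after the removal, 3405 were lower and 4357 higher. Within the members the rank correlation of the fold change was then 0.16 with length and -0.26 with GC content. What made the trend was not tested.

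**Figure D4:**
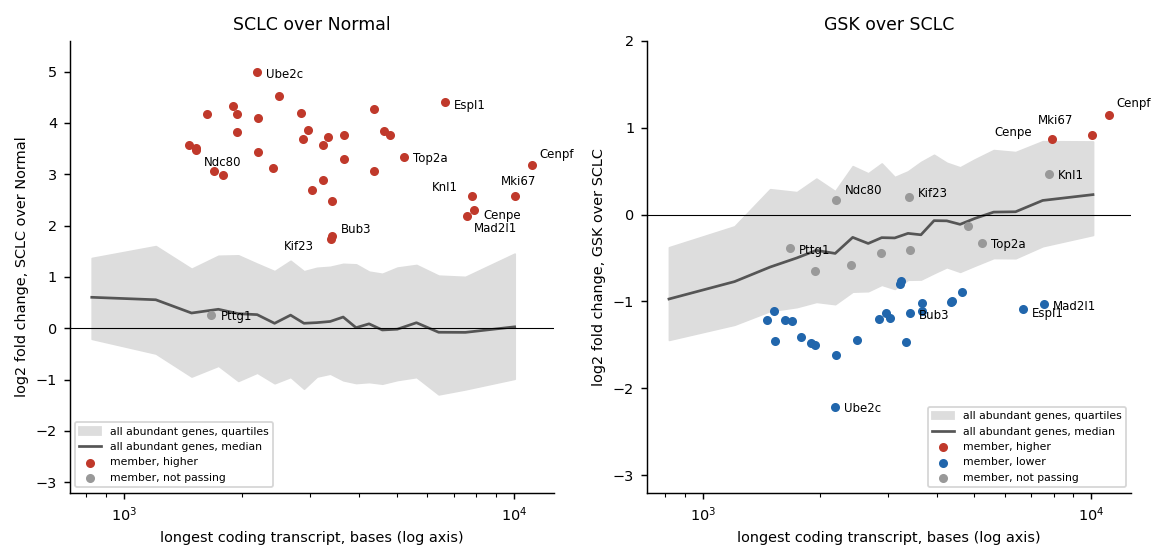
Log2 fold change against the length of the longest coding transcript (bases, log axis) for the 38 members (points) beside the median (line) and quartiles (grey band) of all genes averaging at least 100 normalized counts in 20 bins of length, for SCLC over Normal (left) and GSK over SCLC (right). On the right the line climbs with length and Cenpf (1.15), Mki67 (0.91) and Cenpe (0.86) lie at or above the upper edge of the band, while Mad2l1 (-1.03) and Espl1 (-1.09), also long, lie below the band.

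Beyond the 38 members, 160 further genes of cell division in 14 lists were examined, of which 158 were tested. These lists too were chosen with earlier results of these data known. In SCLC over Normal, 114 were higher, 17 lower and 27 did not pass, beside the 25.3% higher and 25.1% lower of all genes tested, with a median log2 fold change of 1.88 in the authors' deposited table. In GSK over SCLC, 62 were lower, 12 higher and 84 did not pass, beside the 15.5% lower and 21.6% higher of all genes tested, with a median of -0.53 in the authors' deposited table. With equal totals these became 21 lower and 28 higher, beside 1970 lower and 8738 higher of all 28376 genes tested. With the median of abundant genes at 0 they became 40 lower and 18 higher, beside 3076 lower and 7245 higher of all genes tested. The tested list genes all averaged at least 100 normalized counts, and shares among such genes depended on the class of transcript length. In GSK over SCLC, 14.2% to 44% of such genes were lower and 16.7% to 26.5% higher. For SCLC over Normal, 32.8% to 43.6% were higher and 24.4% to 34.6% lower.

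In SCLC over Normal the lists differed in how many of their genes were higher, beside 32.8% to 43.6% of abundant genes by class of transcript length. The counts higher of core APC/C subunits, cytokinesis genes and G1 and S phase genes lay within that range. All 19 tested genes of the list of other mitotic kinesins and microtubule regulators were higher, led by Kif18b (4.39 ± 0.48), Ckap2l (4.22 ± 0.48) and the tubulin-binding Stmn1 (4.05 ± 0.36) in the authors' deposited table. All 8 condensin subunits, which compact chromosomes, were higher, with Ncapd2 at 4.29 ± 0.40 and Ncaph at 3.61 ± 0.39 in the authors' deposited table. Of the 18 inner kinetochore genes tested, 17 were higher, among them Cenpm (4.29 ± 0.40) and Cenps (4.19 ± 0.48) in the authors' deposited table. The exception was Cenpx, which did not pass at 0.41 ± 0.29 in the authors' deposited table. Of the 14 core subunits of the APC/C, 6 were higher, 1 was lower (Anapc4, -0.88 ± 0.26) and 7 did not pass, at a median of 0.51 in the authors' deposited table. In the MIS12 and SKA list 6 of 8 were higher and Zwint was lower (-0.85 ± 0.36) in the authors' deposited table. Cohesin and its regulators were split, 7 higher and 5 lower of 14, with the acetyltransferase Esco1 at -1.08 ± 0.26 and its relative Esco2 at 1.95 ± 0.34 in the authors' deposited table. The single gene lower among the 13 of the centrosome list, of which 10 were higher, was Pcnt (-1.90 ± 0.21) in the authors' deposited table. The cytokinesis list had 4 higher and 3 lower of 10, the lower ones being Kif13a (-2.35 ± 0.41), the GTPase Rhoa (-0.78 ± 0.20) and Chmp4b (-0.55 ± 0.23) in the authors' deposited table. Of the 8 G1 and S phase genes 3 were higher, Ccne2 (3.65 ± 0.46), Ccne1 (2.78 ± 0.29) and Cdk4 (1.78 ± 0.27), and 4 lower, among them Ccnd1 (-5.13 ± 0.61) in the authors' deposited table. Of the 7 CDK inhibitors 4 were higher and 2 lower, Cdkn2b (-4.87 ± 0.27) and Cdkn1a (-1.60 ± 0.39) in the authors' deposited table. B-Myb (Mybl2), which activates late cell cycle promoters, was 4.69 ± 0.37 higher in the authors' deposited table.

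The lists also differed in GSK over SCLC. Among abundant genes, 14.2% to 44% were lower and 16.7% to 26.5% higher, depending on the class of transcript length. The 4 of 14 cohesin genes higher and the 6 of 14 core APC/C subunits lower lay near the upper ends of these ranges. In the list of APC/C coactivator and inhibitors, 4 of 5 were lower, led by Ube2s, the ubiquitin chain-extending enzyme that works with Ube2c (-2.19 ± 0.27, adjusted p = 5.92e-15), and the coactivator Fzr1 (-1.35 ± 0.27) in the authors' deposited table. Of the 12 genes of CDK1 control, 9 were lower and none higher, including the CDK-binding Cks1b (-1.63 ± 0.36) and the inhibitory kinase Wee1 (-1.04 ± 0.29) in the authors' deposited table. In the list named for the DREAM complex and B-Myb, 7 of 12 genes were lower. Among them were Mybl2 (-1.66 ± 0.29) and E2f1 (-1.45 ± 0.28) in the authors' deposited table. That list mixes regulators of several kinds, which were not counted apart. The inner kinetochore list had 9 of 18 lower, led by Cenpm (-1.59 ± 0.33) and Cenpn (-1.41 ± 0.27), and none higher in the authors' deposited table. Of the 14 core APC/C subunits, 6 were lower and Anapc15 was higher (0.69 ± 0.29) in the authors' deposited table. Of the 14 genes of cohesin and its regulators, 4 were higher and 1 lower: the loader Nipbl (1.25 ± 0.27), Esco1 (1.22 ± 0.29), Stag2 (0.97 ± 0.35) and Pds5b (0.95 ± 0.30) were higher in GSK, and Cdca5, the sororin gene, was lower (-0.77 ± 0.27), in the authors' deposited table. Also higher were the nuclear pore protein Tpr (0.79 ± 0.29) and the centriole protein Cep135 (1.35 ± 0.33) in the authors' deposited table.

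**Figure D5:**
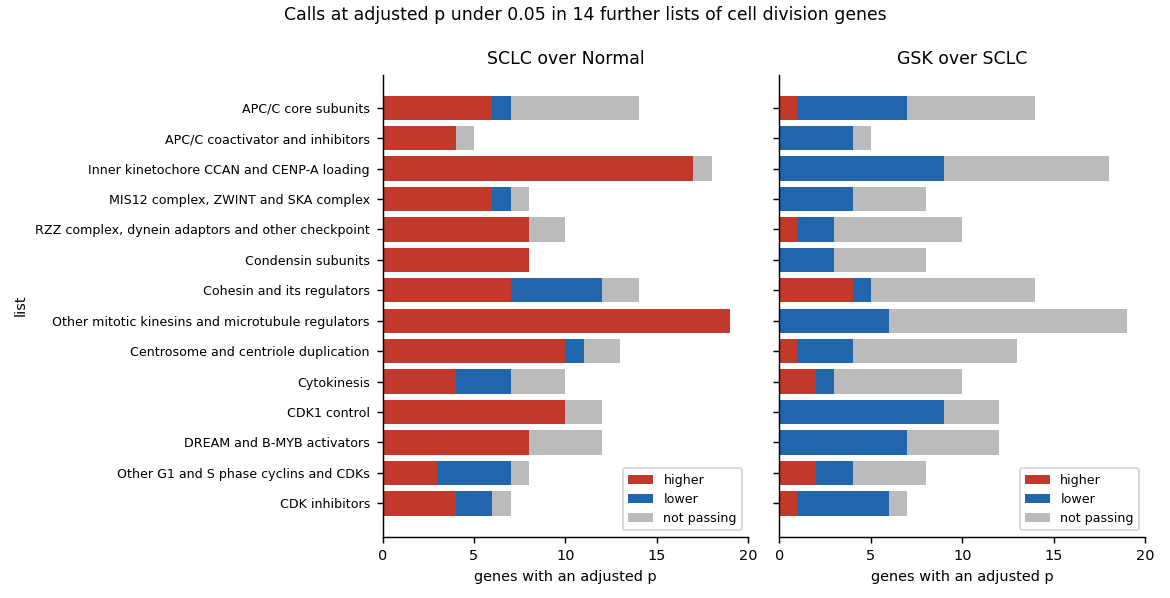
Number of genes higher (red), lower (blue) and not passing (grey) at adjusted p under 0.05 in 14 further lists of cell division genes, for SCLC over Normal (left) and GSK over SCLC (right). Red fills most bars on the left, with 114 of 158 genes higher, while on the right blue and grey dominate, with 62 lower. The cohesin list, of 14 genes, holds 4 of the 12 higher genes, near the share higher among abundant genes of 6000 bases and over (26.5%).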

How the data were processed

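Bulk RNA of 9 mouse organoid libraries (3 GSK, 3 SCLC, 3 Normal) was made with a stranded mRNA kit, per the labels, and aligned with STAR 2.7.9a to GRCm39, per the submitters' processing notes. The sources used here do not give the counting and differential expression tools. The authors deposited a pair of comparison tables without columns for single libraries. Their signal column is the mean normalized count over 6 libraries, and their log2 columns are the fold change and its standard error, per the file headers. The score column is the authors' test statistic, and the authors' p-value columns hold unadjusted and adjusted p. The labels do not say whether libraries came from separate cultures or animals, so p-values measure only the spread among these libraries, which may be technical.

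The control of the second table was taken as SCLC, because the implied control means matched the SCLC means of the first over 13634 genes with an SD of 0.00837 on the log2 scale. Depth per library is unknown, and the implied totals, being sums of normalized counts, do not give it. A gene's group means follow from its mean and fold change, for 3 libraries a side. Alternatives were stricter thresholds, other scalings, other filters and a removed trend over length and GC content. That removal used 20 bins of each and kept the overall median. Where these altered the fold change or the value tested against, p was recomputed from fold change and standard error. Computation used Python 3.11.15, numpy 2.4.6, scipy 1.17.1 and pandas 2.3.3. On simulated data only the plain test with its adjustment and the trend removal were run, with no trend or a trend over length. The other alternatives were not simulated. Lengths and GC content came from GENCODE M21 (GRCm38), used by symbol and identifier only, since the builds differ. The 38 members, the 14 lists and the markers were chosen with earlier results of these data known. All members are accounted for; of the lists, named genes are up to 3 called ones with the largest change, and all that changed against a list's majority where these are 3 or fewer.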

Additional observations from a re-analysis of the deposited data

How the results depend on the processing

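In SCLC over Normal, all 38 members kept direction and call under 6 of 7 alternatives, and under the test against a log2 change of 1 Kif23 lost its call and the lower genes of the further lists numbered 6 in place of 17. In GSK over SCLC, that test left 0 members higher and 1 lower, and 3 list genes higher and 2 lower. Equal totals gave 6 members higher and 12 lower, and 28 list genes higher and 21 lower. Of all 28376 genes tested, 8738 were then higher and 1970 lower. Equal totals also reversed Bub1 (0.0939), Ttk (0.0582), Kif11 (0.37), Top2a (0.18) and Pttg1 (0.12), none of which had passed. With the median of abundant genes set to 0, 40 list genes were lower, beside 3076 of all 28376 genes tested, and Kif11 turned positive (0.11). With the length and GC trend removed and the overall median kept, 0 members were higher and Knl1 turned negative (-0.41). The distance of the 3 long genes from the others was then 1.31. With long members taken by a mean transcript length of at least 4000 bases it was 1.58, and with a coding length of at least 6000 bases, a class chosen after seeing the data, 1.97. The lower members numbered 20 to 26 under the remaining alternatives. No paired analysis was possible because the tables hold no value of a single library, and for the same reason no library could be left out in turn. Depth per library is unknown, so no counting limit is given.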

Other observations

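Regulators of G1 included larger changes than the mitotic genes. In the list of G1 and S phase cyclins and CDKs, the G1 kinase Cdk6 had implied means of 940 normalized counts in GSK and 29.4 in SCLC, a log2 fold change of 5.0 ± 0.81 in the authors' deposited table (adjusted p = 9.03e-09). Cyclin D2 (Ccnd2) had 1146 in GSK and 21.4 in SCLC, at 5.74 ± 0.54 in the authors' deposited table (adjusted p = 4.44e-24). Both were lower in SCLC than in Normal, Cdk6 at -4.76 ± 0.80 and Ccnd2 at -7.04 ± 0.32 in the authors' deposited table. Cdk4 (-1.64 ± 0.29) and cyclin E1 (Ccne1, -1.65 ± 0.31) were lower in GSK than in SCLC in the authors' deposited table.

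Of the 7 CDK inhibitors, 5 were lower in GSK than in SCLC and 1 was higher. Cdkn1a, the p21 gene, had implied means of 4949 in GSK and 1116 in SCLC, at 2.15 ± 0.45 in the authors' deposited table (adjusted p = 1.13e-05). Cdkn1c (-3.28 ± 0.40), Cdkn2c (-1.89 ± 0.39), Cdkn2a (-1.61 ± 0.28), Cdkn2d (-1.53 ± 0.28) and Cdkn2b (-0.85 ± 0.32) were lower in the authors' deposited table. Of the genes placed in the cytokinesis list, Plk3 (2.77 ± 0.40) and Septin9 (2.16 ± 0.60) were higher and Racgap1 (-0.75 ± 0.27) was lower in GSK in the authors' deposited table. Markers of fibroblasts, immune cells and endothelium rose in the same GSK libraries, and their part in these values was not tested.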
